A study of Ovis aries with 12 samples.

Results

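PAX2, PAX8, LHX1, OSR1, WT1, SALL1, EYA1, SIX2 and EMX2 are transcription regulators of the intermediate mesoderm and of the mesonephros, the first working kidney of the sheep embryo. These 9 genes were taken by symbol from the 26247 genes of the deposited table, each symbol matched 1 gene, and all 9 passed the expression filter that left 14595 genes for testing. Bulk RNA-seq had been run on enzymatically dissociated sheep embryos (Ovis aries), with 3 libraries in each of 4 groups. The groups were Hulunbuir Short-tail Sheep at day 25, Ujumqin sheep at day 25, Hulunbuir at day 16 and Ujumqin at day 16. Hulunbuir was the experimental breed and Ujumqin the control breed, no treatment was given in the labels, and all 4 groups were embryos of unstated sex. The design text gives 3 per group but does not say how many embryos went into a library, so the p-values measure the spread between these libraries, which can be technical.

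The intermediate mesoderm lies between the somites and the lateral plate, and forms the nephric duct, the nephrogenic mesenchyme beside it and part of the gonad. In mouse, OSR1 and LHX1 mark the tissue early, PAX2 and PAX8 act together to set up the nephric lineage, and signals from the duct then turn mesenchyme that makes EYA1, SALL1, WT1 and SIX2 into nephrons. None of these genes is restricted to the kidney: PAX2, PAX8, LHX1 and EMX2 are also made in the neural tube or brain, EYA1 in placodes and somites, SIX2 in head and limb mesenchyme, OSR1 in lateral plate, and WT1 in the coelomic lining and gonad. In whole-embryo RNA, fewer cells of a type and less RNA per cell cannot be told apart.

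Total counts lay between 32625184 and 39643588 per library in Hulunbuir and between 30464606 and 33171681 in Ujumqin at day 25, and between 43131962 and 51241161 in Hulunbuir and between 49944437 and 55455815 in Ujumqin at day 16. Levels of a gene between groups are given as CPM, each gene's count relative to its library's total. That total was scaled by TMM, a normalization that aligns the bulk of genes between libraries. Levels between genes are given as deposited FPKM, which is per kilobase of gene. Sums over marker lists are in deposited FPKM too, also where groups are compared, and these are not scaled by TMM. At day 25 the median log2 change of all genes, Hulunbuir over Ujumqin, was 0.29 with limma on log2(FPKM + 1). With edgeR and TMM it was 0.03. A gene is said to have changed where the adjusted p of edgeR's quasi-likelihood test, over all 14595 genes, was under 0.05. Day 16 libraries of a group varied more than day 25 libraries, with a biological coefficient of variation of 43.8% at day 16 and 18.1% at day 25.

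In the Oar_v3.1 assembly, OSR1 (ENSOARG00000016880) lies on chromosome 3 at 27162282 to 27163816, minus strand. LHX1 (ENSOARG00000000046) lies on chromosome 11 at 12875884 to 12880759, plus strand. PAX2 (ENSOARG00000015552) and EMX2 (ENSOARG00000018550) share chromosome 22, at 20748672 to 20826390 and at 36794472 to 36799448, both on the plus strand. On chromosome 3, PAX8 (ENSOARG00000020812) spans 59598894 to 59631723 and SIX2 (ENSOARG00000006034) spans 79242090 to 79249093, both on the plus strand. On the minus strand, EYA1 (ENSOARG00000004513) spans 47588481 to 47960610 of chromosome 9, SALL1 (ENSOARG00000017583) spans 19038579 to 19056160 of chromosome 14, and WT1 (ENSOARG00000016334) spans 61326486 to 61375017 of chromosome 15. No other listed gene overlapped any of the 9, and only WT1 had neighbours within 5000 bases, which were 6 short antisense RNA entries holding 0 to 13 counts together in a library. Whether counting used strand is not given in the sources used here, so reads from an unlisted antisense transcript cannot be told apart from those of the gene.

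The factors reached low to middling levels, and the ranking changed with age. In Hulunbuir embryos at day 25 OSR1 was highest, at 13.1 ± 1.41 FPKM (SD, n = 3 here and below), and SIX2 was next at 8.02 ± 0.33 FPKM. PAX8 at 5.31 ± 0.42, SALL1 at 5.29 ± 0.43 and EMX2 at 5.18 ± 0.28 FPKM overlapped, and PAX2 was lowest at 0.677 ± 0.363 FPKM. Ujumqin embryos at day 25 had the same genes at the ends of the order, although SIX2, at 14.6 ± 1.13 FPKM, and OSR1, at 13.2 ± 3.1 FPKM, overlapped there.

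At day 16 SALL1 and OSR1 led. SALL1 stood at 19.3 ± 7.34 FPKM and OSR1 at 15.4 ± 8.23 FPKM in Hulunbuir, and OSR1 at 8.72 ± 11.4 FPKM and SALL1 at 7.07 ± 2.94 FPKM in Ujumqin. SIX2 was last in both breeds, at 0.452 ± 0.335 FPKM in Hulunbuir and 0.275 ± 0.071 FPKM in Ujumqin. Neighbours in the day 16 order overlapped in every case except PAX8 and EMX2 in Ujumqin, and in day 25 libraries the breaks fell below OSR1, SIX2, EMX2 and LHX1 in Hulunbuir and below OSR1, SALL1 and LHX1 in Ujumqin.

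**Figure D1:**
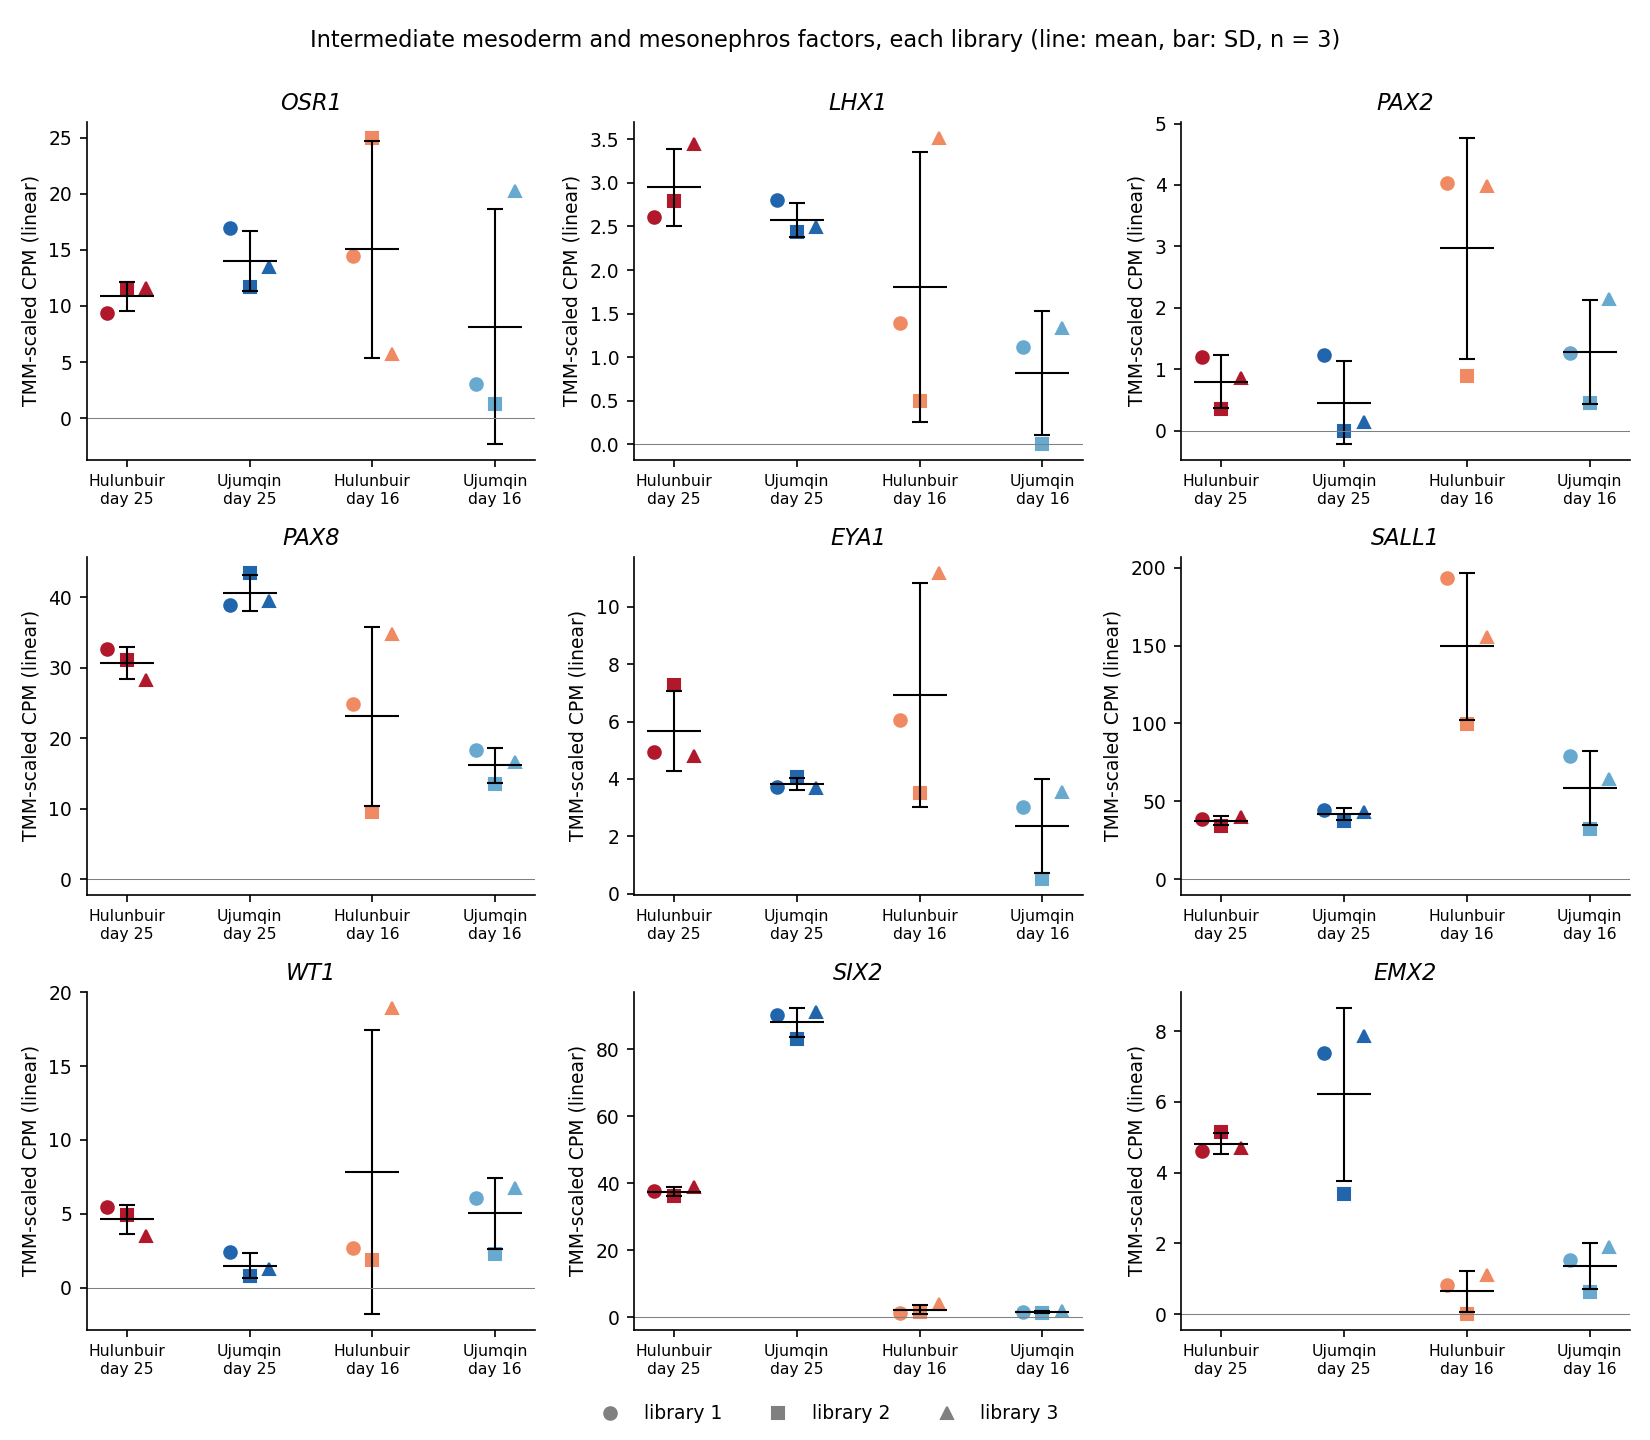
TMM-scaled CPM of the 9 factors in each of the 12 libraries, 1 gene per panel on its own linear scale; points are libraries (shape gives the library number), the horizontal line is the mean and the bar the SD of 3. SIX2 is between 36.1 and 91.1 CPM in day 25 libraries and at most 3.85 CPM in day 16 libraries, whereas SALL1 is highest in the Hulunbuir libraries of day 16.

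The first comparison asks how the factors differed between short-tailed Hulunbuir and Ujumqin embryos at day 25. SIX2 and PAX8 were lower and WT1 was higher in Hulunbuir, and the other 6 did not pass the test. These 3 of 9 stand against 46% of all tested genes that were called in this comparison, 23.3% higher and 22.7% lower. The groups did not overlap for 5 of the 9 (PAX8, OSR1, WT1, EYA1 and SIX2), against 57.4% of all genes. The median log2 change of the 9 was -0.11, and that of all tested genes was 0.03.

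SIX2, which in mouse keeps nephron progenitors undifferentiated, had 37.6, 36.1 and 38.8 CPM in the Hulunbuir libraries, against 90.2, 83.0 and 91.1 CPM in the Ujumqin libraries. Every Hulunbuir library lay below every Ujumqin library, with an SD of 1.35 CPM in Hulunbuir and 4.42 CPM in Ujumqin. SIX2 was thus 2.28-fold lower in Hulunbuir (log2 change -1.19 ± 0.07 SE, edgeR quasi-likelihood adjusted p = 1.67e-05, lower in 3 of 3 libraries). It passed the threshold in each of the 14 alternative analyses run for this comparison.

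WT1, a zinc finger factor of nephrogenic mesenchyme, podocytes, coelomic lining and gonad, had 5.45, 4.89 and 3.52 CPM in Hulunbuir, against 2.41, 0.749 and 1.28 CPM in Ujumqin. The groups did not overlap, with Ujumqin library 1 the nearest to the Hulunbuir range. The difference was 3.19-fold (log2 change 1.67 ± 0.41, edgeR adjusted p = 0.00996). It did not pass with limma on log2(FPKM + 1), where adjusted p = 0.145, or in the fit on all 12 libraries, where adjusted p = 0.188. The coelomic lining and epicardium markers, which mark another source of WT1, summed to between 84.4 and 87.1 FPKM over 9 genes in Hulunbuir and between 46.7 and 47.4 FPKM in Ujumqin, with none of the 9 at 0. Of these 9, 3 were called higher in Hulunbuir, 1 lower and 5 not, with a median log2 change of 0.20. Of all genes, 23.3% were called higher and 22.7% lower. The 3 were MSLN, ALDH1A2 (log2 change 1.12 ± 0.15, edgeR adjusted p = 0.000528) and TCF21 (1.10 ± 0.21, adjusted p = 0.00339). Mean FPKM in Hulunbuir and Ujumqin was 24.2 and 7.60 for MSLN and 20.05 and 7.38 for ALDH1A2. The TCF21 call was lost with limma on log2(FPKM + 1) (0.0959) and in the fit on 12 libraries (0.219). MSLN, which encodes mesothelin of the mesothelium, was 2.53-fold higher in Hulunbuir (log2 change 1.34 ± 0.11, edgeR adjusted p = 7.01e-05), though not past the threshold in the fit on 12 libraries (0.116). TBX18 of the epicardium was lower (-0.59 ± 0.12, adjusted p = 0.00487), and the mesothelial genes UPK1B (-0.38 ± 0.22, adjusted p = 0.182) and UPK3B (0.20 ± 0.30, adjusted p = 0.607) did not pass. The TBX18 call was lost with total count scaling (0.102), with limma on log2(FPKM + 1) (0.766) and in the fit on 12 libraries (0.519). The part of these cells in the WT1 difference was not tested.

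PAX8, a paired box factor of nephric duct and early nephrons, had 32.7, 31.1 and 28.3 CPM in Hulunbuir and 38.9, 43.5 and 39.4 CPM in Ujumqin. The difference was small, 1.29-fold lower in Hulunbuir (log2 change -0.36 ± 0.10, edgeR adjusted p = 0.0136). It turned on how libraries were scaled: with total counts alone the log2 change was -0.04 (adjusted p = 0.75) while the median of all genes moved to 0.35, and in deposited FPKM the 2 means were 5.31 and 5.44. Without Hulunbuir library 3 it missed the threshold as well (adjusted p = 0.0659), as it did in the fit on 12 libraries (adjusted p = 0.445).

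EYA1, a phosphatase and co-activator that works with SIX2 and its relatives, had 4.95, 7.27 and 4.80 CPM in Hulunbuir, against 3.71, 4.08 and 3.70 CPM in Ujumqin. All Hulunbuir libraries were higher, but the log2 change of 0.61 ± 0.23 missed the threshold (edgeR adjusted p = 0.0552) except with total count scaling, where it was 0.93 (adjusted p = 0.00877). OSR1, a zinc finger factor of early intermediate mesoderm, had 9.40, 11.6 and 11.6 CPM in Hulunbuir and 16.9, 11.7 and 13.5 CPM in Ujumqin, a log2 change of -0.33 ± 0.17 that did not pass (adjusted p = 0.144). The gap between the OSR1 groups was narrow, 11.60 CPM in the highest Hulunbuir library and 11.65 CPM in the lowest Ujumqin library.

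SALL1, a zinc finger factor of nephrogenic mesenchyme, averaged 37.6 ± 2.82 CPM in Hulunbuir and 41.8 ± 3.69 CPM in Ujumqin, with overlapping libraries. LHX1, a LIM homeobox factor of the duct and of nephron patterning, averaged 2.95 ± 0.44 CPM in Hulunbuir and 2.58 ± 0.20 CPM in Ujumqin. The log2 changes were -0.11 ± 0.10 for SALL1 (edgeR adjusted p = 0.376) and 0.23 ± 0.24 for LHX1 (adjusted p = 0.457), so neither differed beyond its spread. EMX2, a homeobox factor of duct epithelium, had 4.62, 5.15 and 4.68 CPM in Hulunbuir and 7.39, 3.41 and 7.85 CPM in Ujumqin. Ujumqin library 2 stood below all the others for EMX2, and without it the log2 change was -0.61 (adjusted p = 0.0311), against -0.33 ± 0.30 with it (adjusted p = 0.393).

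PAX2, the paired box partner of PAX8 in the nephric lineage, was near the limit of detection at day 25. It had 55, 13 and 36 counts in Hulunbuir and 38, 0 and 4 counts in Ujumqin. Library 1 of Ujumqin thus carried nearly all PAX2 counts of its group. With it the log2 change was 0.82 ± 1.06 (edgeR adjusted p = 0.55), and without it 3.47 (adjusted p = 0.0192). A count of 0 in Ujumqin library 2 allows up to 0.112 CPM on the scale used here, which is 3 counts and covers counting error only.

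**Figure D2:**
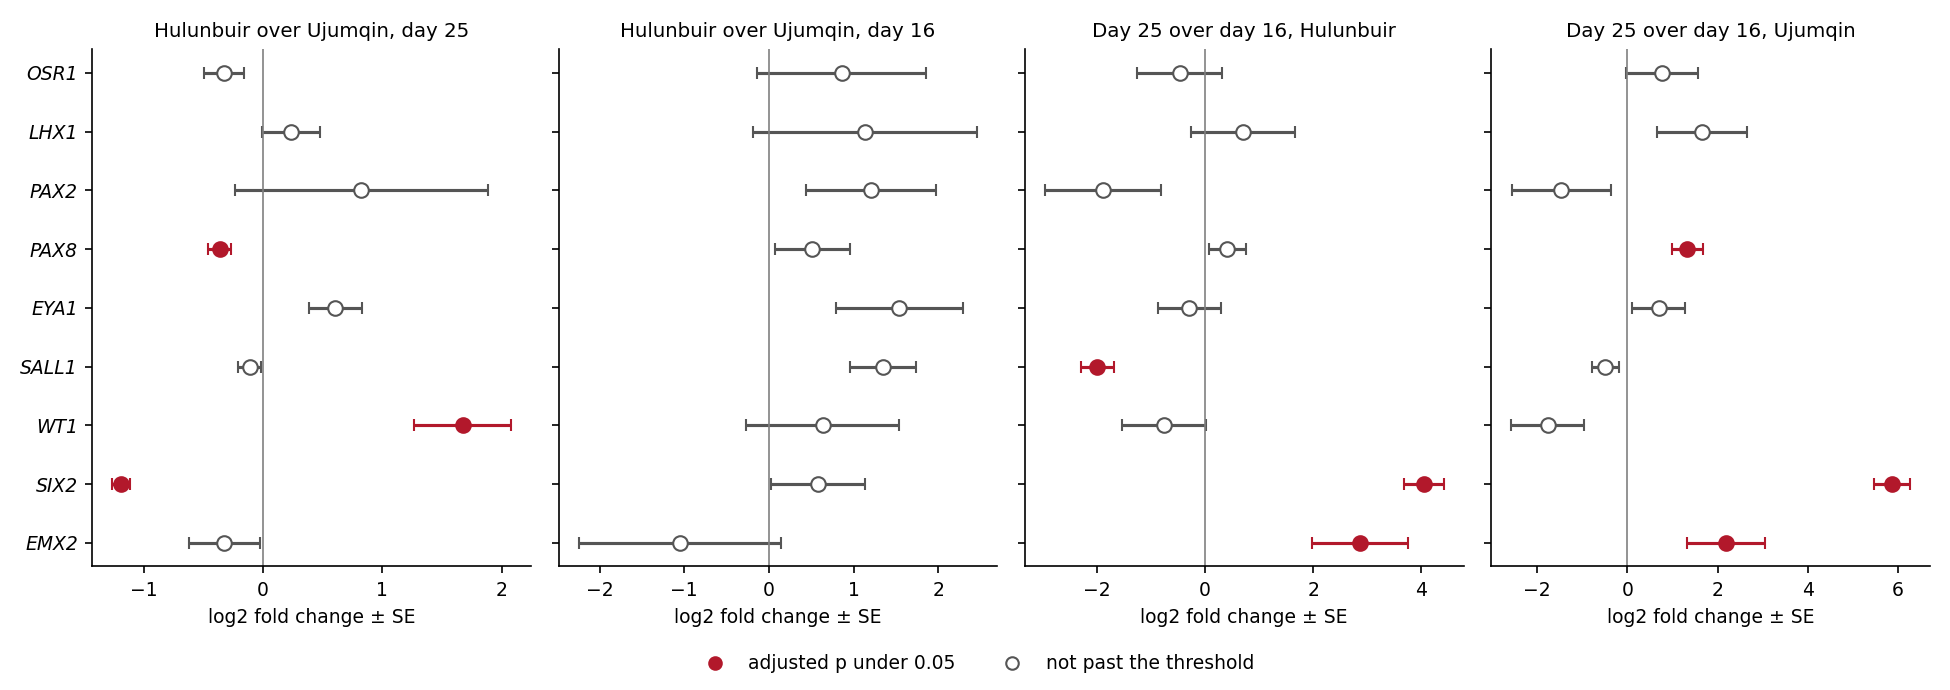
Log2 fold changes of the 9 factors with standard errors (bars) from edgeR, 3 against 3 libraries in each panel, with a separate horizontal scale per panel; filled points passed an adjusted p of 0.05. SIX2 lies at -1.19 between breeds at day 25, and at 4.05 and 5.86 between ages, while no factor is filled at day 16.

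The same comparison at day 16 gave no called factor out of 9, where 3 of the 14595 tested genes, or 0.0206%, were called by edgeR's quasi-likelihood test, 0.0137% higher and 0.00685% lower. At an unadjusted p under 0.05, 2955 genes and 1 of the 9 factors, SALL1, passed. The log2 change was above 0 for 8 of the 9, the exception being EMX2 at -1.05 ± 1.20 (adjusted p = 0.638). Their median was 0.86, against 0.01 for all tested genes.

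SALL1 had 194, 99.4 and 155 CPM in Hulunbuir at day 16, against 79.1, 32.4 and 64.2 CPM in Ujumqin. It was the only 1 of the 9 whose breed groups did not overlap at this age, where 26.1% of all genes did not overlap. The log2 change was 1.35 ± 0.39 (edgeR adjusted p = 0.15). Same-numbered day 16 libraries of the breeds deviated together, and with the replicate number as a block SALL1 passed (log2 change 1.39, adjusted p = 0.0408), together with 293 genes in all. It also passed with DESeq2 (adjusted p = 0.0162), with voom (0.0394), with limma on log2(FPKM + 1) (0.0203) and in the fit on 12 libraries (0.0148).

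EYA1 had 6.07, 3.51 and 11.2 CPM in Hulunbuir and 3.01, 0.512 and 3.56 CPM in Ujumqin, a log2 change of 1.54 ± 0.75 (edgeR adjusted p = 0.296). The lowest Hulunbuir library lay just under the highest Ujumqin library. PAX2 had 4.04, 0.898 and 3.98 CPM in Hulunbuir and 1.26, 0.448 and 2.14 CPM in Ujumqin, and PAX8 had 24.9, 9.59 and 34.8 CPM in Hulunbuir and 18.4, 13.5 and 16.6 CPM in Ujumqin. For both paired box genes, Hulunbuir libraries 1 and 3 exceeded every Ujumqin library and Hulunbuir library 2 did not. Their log2 changes of 1.21 ± 0.77 for PAX2 (adjusted p = 0.406) and 0.52 ± 0.45 for PAX8 (adjusted p = 0.54) were within that spread.

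WT1 and OSR1 were each dominated by 1 day 16 library in a group. WT1 had 2.67, 1.88 and 19.0 CPM in Hulunbuir, against 6.04, 2.28 and 6.77 CPM in Ujumqin, and its log2 change was 0.64 ± 0.90 (edgeR adjusted p = 0.714) with Hulunbuir library 3 and -1.15 without it (adjusted p = 0.374). OSR1 had 14.4, 25.0 and 5.71 CPM in Hulunbuir, against 3.01, 1.26 and 20.2 CPM in Ujumqin. Its log2 change was 0.86 ± 0.998 (adjusted p = 0.646), 2.81 without Ujumqin library 3 (adjusted p = 0.0994) and -0.22 without library 2 of both breeds. The coelomic lining and epicardium markers summed to 96.5, 79.7 and 150 FPKM in Hulunbuir libraries 1 to 3. In Ujumqin libraries 1 to 3 they summed to 74.6, 35.3 and 343 FPKM. Both sums were highest in library 3, but through different genes. UPK1B held 223 FPKM of the Ujumqin peak and ALDH1A2 held 70.3 FPKM of the Hulunbuir peak. In Hulunbuir TBX18, TCF21 and LRRN4 were also highest in library 3. UPK1B, UPK3B, MSLN and BNC2 were highest in Hulunbuir library 2, and BNC1 in library 1. The part of these markers in the WT1 and OSR1 values was not tested.

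LHX1, SIX2 and EMX2 were low in every day 16 library. LHX1 had 1.39, 0.502 and 3.52 CPM in Hulunbuir and 1.11, 0 and 1.33 CPM in Ujumqin. SIX2 had 1.31, 1.61 and 3.85 CPM in Hulunbuir and 1.69, 1.11 and 1.73 CPM in Ujumqin. EMX2 had 0.831, 0 and 1.12 CPM in Hulunbuir and 1.54, 0.64 and 1.91 CPM in Ujumqin. All 3 overlapped between breeds, with adjusted p of 0.646 for LHX1, 0.578 for SIX2 and 0.638 for EMX2, and the counts of 0 allow up to 0.064 CPM for LHX1 and 0.0793 CPM for EMX2.

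The day 16 spread ran along the library number. Library 2 was lowest for 7 of the 9 factors in Hulunbuir and for 9 of 9 in Ujumqin, and library 3 was highest for 6 of 9 in Hulunbuir and for 7 of 9 in Ujumqin. The exceptions in Hulunbuir library 2 were OSR1, which was highest there, and SIX2. Other lists were mixed in their library order. Neural tube markers summed over 12 genes to 56.7, 15.0 and 116 FPKM in Hulunbuir libraries 1 to 3. In Ujumqin libraries 1 to 3 they summed to 20.3, 9.77 and 18.9 FPKM. Somite and muscle markers over 11 genes summed to 125, 76.6 and 212 FPKM in Hulunbuir and to 66.6, 22.9 and 89.1 FPKM in Ujumqin, so that library 2 was lowest in both lists and both breeds.

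Sums of extraembryonic markers did not follow the order of the neural and muscle sums. Yolk sac and liver markers over 10 genes summed to 3948, 12183 and 4378 FPKM in Hulunbuir and to 22189, 23472 and 56706 FPKM in Ujumqin. Trophoblast markers over 8 genes summed to 4425, 3354 and 1391 FPKM in Hulunbuir and to 3393, 3084 and 1748 FPKM in Ujumqin. These sums were lowest in library 3 of each breed. KRT8 made up most of each sum, and other members ran differently. In Ujumqin libraries 1 to 3, PPARG had 20.5, 75.5 and 9.80 FPKM and TFAP2C 19.2, 45.4 and 1.75 FPKM. PAG4 had 27.7, 102 and 0.0256 FPKM there. CDX2, HAND1 and S100G were also highest in Ujumqin library 2, and ELF5 in library 3. In Hulunbuir PPARG had 0.635, 2.99 and 0.456 FPKM, TFAP2C 5.79, 2.48 and 3.88 FPKM, and PAG4 at most 0.377 FPKM. Of the defining genes, EN2 of the neural list and MYOG of the muscle list were at 0 in all Hulunbuir libraries of day 16, and MYF6 and MYOD1 of the muscle list were at 0 in all Ujumqin libraries of day 16. The uterine endometrium list of 8 genes summed to between 53.1 and 116 FPKM in Hulunbuir and between 44.4 and 54.4 FPKM in Ujumqin at day 16, with PAEP and PGR at 0 in all 12 libraries of the series and LTF, MUC1, SPP1 and MSX1 passing the expression filter. The part of tissue makeup in the day 16 values of the 9 factors was not tested.

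**Figure D3:**
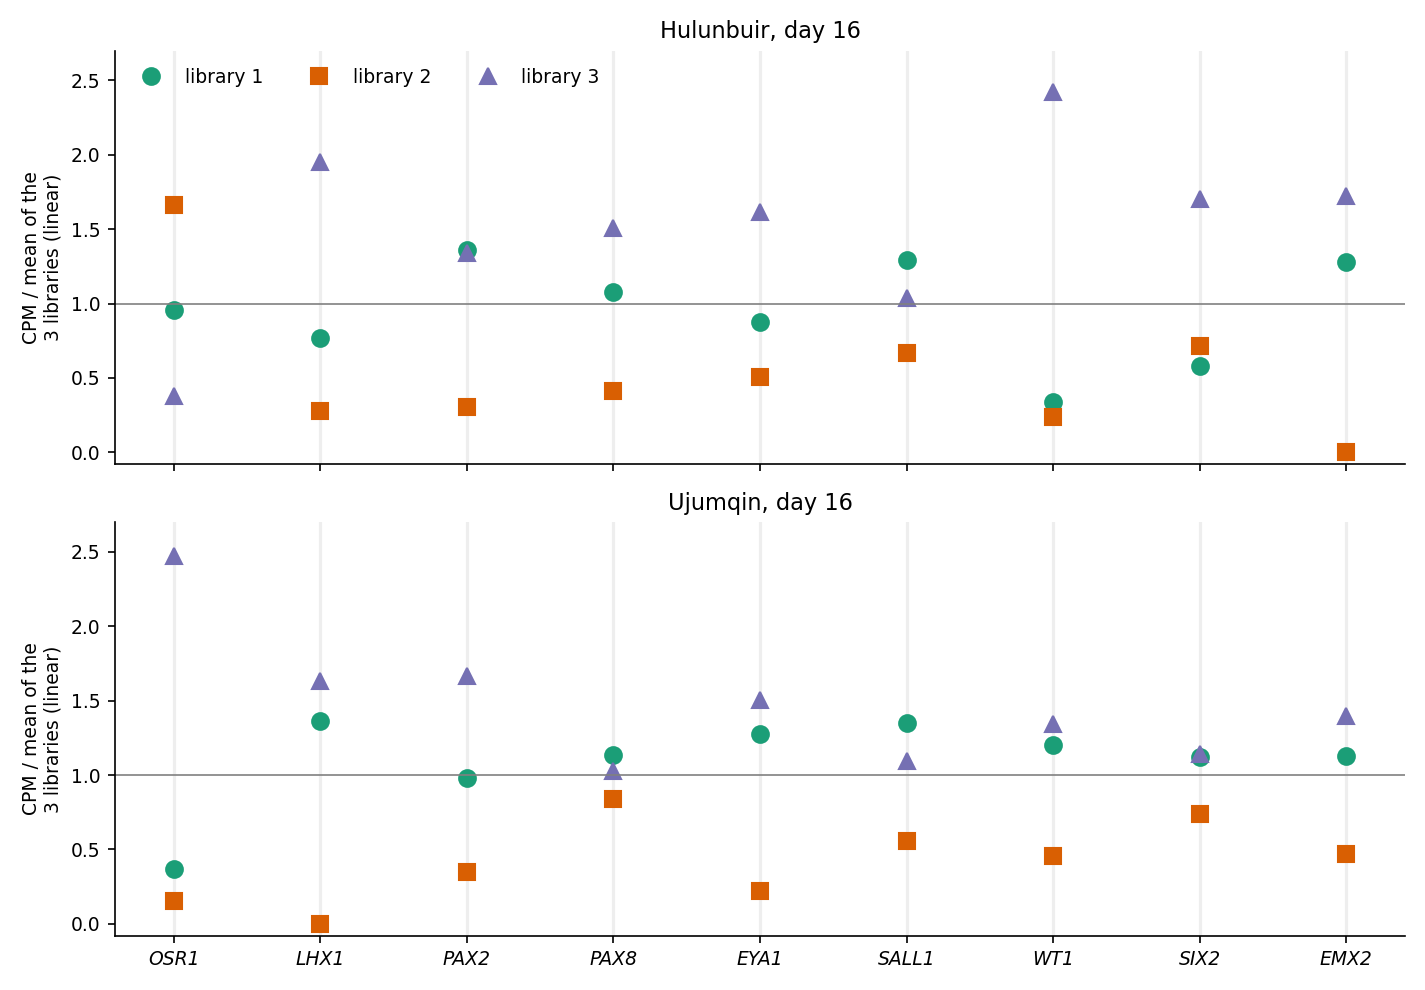
CPM of each factor in each day 16 library divided by the mean of its 3 libraries (linear axis; the grey line at 1 is the group mean), Hulunbuir above and Ujumqin below, with 1 symbol per library number. Library 2 is lowest for 7 of 9 factors in Hulunbuir and for 9 of 9 in Ujumqin, and OSR1 in Hulunbuir runs the other way.

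The age comparisons ask how the factors changed between day 16 and day 25 in each breed. SIX2 and EMX2 rose in both breeds, SALL1 fell in Hulunbuir, and PAX8 rose in Ujumqin. In Hulunbuir 3 of the 9 were called, against 40.5% of all genes (18.9% higher and 21.6% lower), and 3 of 9 groups did not overlap (SALL1, SIX2 and EMX2), against 57.6%. In Ujumqin 3 of the 9 were called, against 63.6% of all genes (30.7% higher and 32.9% lower), and 5 of 9 groups did not overlap (PAX8, LHX1, EYA1, SIX2 and EMX2), against 68.3%. The median log2 change of the 9 was -0.29 in Hulunbuir and 0.78 in Ujumqin, and that of all genes was -0.04 in Hulunbuir and -0.07 in Ujumqin.

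SIX2 showed the widest change of the 9. In Hulunbuir it averaged 37.5 ± 1.35 CPM at day 25 and 2.26 ± 1.38 CPM at day 16, a 16.5-fold rise (log2 change 4.05 ± 0.36, edgeR adjusted p = 2.70e-05). In Ujumqin it averaged 88.1 ± 4.42 CPM at day 25 and 1.51 ± 0.34 CPM at day 16, a 58.3-fold rise (log2 change 5.86 ± 0.39, adjusted p = 1.76e-06). Every day 25 library exceeded every day 16 library in both breeds, and SIX2 passed in all 15 alternatives of each breed.

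EMX2 averaged 4.82 ± 0.29 CPM at day 25 and 0.651 ± 0.582 CPM at day 16 in Hulunbuir, and 6.22 ± 2.45 CPM at day 25 and 1.36 ± 0.65 CPM at day 16 in Ujumqin. The ages did not overlap in either breed. The log2 change was 2.86 ± 0.89 in Hulunbuir (edgeR adjusted p = 0.0247) and 2.19 ± 0.86 in Ujumqin (adjusted p = 0.0433). Both rises were near the threshold. In Hulunbuir the call was lost in the fit on the 6 libraries of the breed (adjusted p = 0.0579) and without day 25 library 1 (0.0529), 2 (0.0599) or 3 (0.0541) or day 16 library 1 (0.0504). In Ujumqin it was lost with total count scaling (0.0625), with no expression filter (0.0586), and without day 25 library 1 (0.102), 2 (0.0503) or 3 (0.114) or day 16 library 1 (0.0907) or 2 (0.113).

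SALL1 averaged 37.6 ± 2.82 CPM at day 25 and 149 ± 47.4 CPM at day 16 in Hulunbuir, a 3.98-fold fall (log2 change -1.99 ± 0.31, edgeR adjusted p = 0.000598) that passed in all 15 alternatives. In Ujumqin it averaged 41.8 ± 3.69 CPM at day 25 and 58.6 ± 23.8 CPM at day 16, with a log2 change of -0.49 ± 0.30 (adjusted p = 0.171). Library 2 of day 16 set that overlap: without it the log2 change in Ujumqin was -0.78 (adjusted p = 0.0146).

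PAX8 averaged 40.6 ± 2.50 CPM at day 25 and 16.2 ± 2.45 CPM at day 16 in Ujumqin, a 2.51-fold rise (log2 change 1.33 ± 0.35, edgeR adjusted p = 0.00597) that passed in all 15 alternatives. In Hulunbuir it averaged 30.7 ± 2.25 CPM at day 25 and 23.1 ± 12.7 CPM at day 16, a log2 change of 0.41 ± 0.34 (adjusted p = 0.359) with overlapping ages. The difference between the breeds' PAX8 changes, tested as an interaction, was -0.92 ± 0.48 (adjusted p = 0.197), and -1.24 without Hulunbuir day 16 library 2 (adjusted p = 0.00821).

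WT1 in Ujumqin averaged 1.48 ± 0.85 CPM at day 25 and 5.03 ± 2.41 CPM at day 16, a log2 change of -1.76 ± 0.81 that missed the threshold (edgeR adjusted p = 0.0777). It passed with DESeq2 (0.0368) and in the fit on the 6 Ujumqin libraries (0.0363). In Hulunbuir the WT1 log2 change was -0.77 ± 0.78 (adjusted p = 0.457) and turned to 1.02 without day 16 library 3 (adjusted p = 0.179). PAX2 was lower at day 25 by point estimate in both breeds, with log2 changes of -1.89 ± 1.07 in Hulunbuir (adjusted p = 0.18) and -1.46 ± 1.10 in Ujumqin (adjusted p = 0.261), neither past the threshold. Without Ujumqin day 25 library 1 the PAX2 log2 change in that breed was -4.17 (adjusted p = 0.0157).

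LHX1, EYA1 and OSR1 did not pass in either breed. LHX1 had log2 changes of 0.70 ± 0.97 in Hulunbuir and 1.66 ± 1.0 in Ujumqin (edgeR adjusted p = 0.59 and 0.167), the Ujumqin value passing with voom (0.04). EYA1 had -0.29 ± 0.58 in Hulunbuir and 0.70 ± 0.59 in Ujumqin (adjusted p = 0.719 and 0.32). OSR1 had -0.47 ± 0.79 in Hulunbuir and 0.78 ± 0.80 in Ujumqin (adjusted p = 0.664 and 0.409), and 2.71 in Ujumqin without day 16 library 3 (adjusted p = 0.0021).

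The test of the difference itself, the change with age in Hulunbuir minus that in Ujumqin, called SIX2 and SALL1, 2 of the 9, where 19.2% of all genes were called, 8.89% with a positive difference and 10.3% with a negative one. SIX2 rose less in Hulunbuir (log2 difference -1.82 ± 0.47, edgeR adjusted p = 0.0214), and SALL1 fell more in Hulunbuir (-1.50 ± 0.42, adjusted p = 0.0304). Both calls were near the threshold. With total count scaling they had adjusted p of 0.0625 for SIX2 and 0.0849 for SALL1, voom left SIX2 at 0.0634, and limma on log2(FPKM + 1) left SALL1 at 0.0954. SIX2 lost the call without any 1 of the 3 Hulunbuir libraries of day 25 (0.05004 to 0.0534) or Ujumqin day 25 library 2 or 3 (0.0511 and 0.0576). SALL1 lost it without any 1 of the 6 day 25 libraries (0.0629 to 0.0788) or Hulunbuir day 16 library 1 (0.0642). OSR1 gained it without Ujumqin day 16 library 3 (-3.18, adjusted p = 0.0122) and WT1 without Hulunbuir day 16 library 3 (2.78, adjusted p = 0.0306).

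Within groups, the factors other than OSR1 varied together. After the group means were removed from log2 CPM, Pearson r over the 12 libraries was above 0 for all 28 pairs among the other 8 genes, between 0.319 and 0.97 with a median of 0.633. The closest pair was LHX1 with EYA1 (r = 0.97), then PAX8 with EMX2 (r = 0.916). For the 8 pairs with OSR1, r lay between -0.33 and 0.407 with a median of 0.082, and 4 were above 0. The libraries share tissue makeup and depth, and the low day 16 libraries numbered 2 enter every pair, so these values describe the libraries.

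Among 11695 other genes with a symbol and a mean of at least 1 FPKM, the profiles most like each factor over the 12 libraries were as follows. SIX2 tracked ANKRD29, TMEM225B and TNFRSF25 (each r = 0.992), and SALL1 tracked TTC27 (r = 0.985), WNT2 (0.981) and SMTNL2 (0.973). LHX1 tracked DEUP1 (0.981), STK39 (0.964) and DPP6 (0.962), whereas its within-group partner EYA1 tracked LIMCH1 (0.95), FHOD3 (0.948) and ROBO1 (0.944). PAX2 was most like SUFU (0.943), MYRIP (0.926) and GSTCD (0.923), and PAX8 most like SSBP2 (0.961), GRIK2 (0.96) and GALNT13 (0.959). For WT1 they were CKAP2 (0.973), FOXP1 (0.948) and SMAD4 (0.946), for EMX2 FGF18 (0.972), BARX1 (0.955) and ZNF140 (0.935), and for OSR1 SEMA3C (0.905), TMEM100 (0.901) and KANK3 (0.875). OSR1 had the lowest best match of the 9.

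Other genes of kidney formation are read at day 25 against the 23.3% of all tested genes called higher and the 22.7% called lower in Hulunbuir. Of 14 tested nephric duct genes 4 were higher and 2 lower in Hulunbuir, with a median log2 change of 0.32. RET, the receptor through which the duct reads GDNF, averaged 20.1 ± 2.39 CPM in Hulunbuir and 7.93 ± 1.01 CPM in Ujumqin (log2 change 1.38 ± 0.15, edgeR adjusted p = 0.000222), a call kept in all 14 alternatives. CDH16, the kidney-specific cadherin of tubule and duct epithelium, averaged 56.8 ± 3.45 CPM in Hulunbuir and 22.6 ± 3.00 CPM in Ujumqin (1.37 ± 0.11, adjusted p = 7.13e-05). SOX9, of ureteric bud tips and also of cartilage, averaged 14.0 ± 1.58 CPM in Hulunbuir and 6.32 ± 2.79 CPM in Ujumqin (1.19 ± 0.28, adjusted p = 0.00826). Both CDH16 and SOX9 missed the threshold in the fit on 12 libraries, with adjusted p of 0.183 for CDH16 and 0.121 for SOX9.

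Of 14 tested signals and receptors of duct outgrowth, none was higher and 3 were lower in Hulunbuir at day 25 (median 0.17). BMP4, which restrains bud outgrowth in mouse, averaged 72.2 ± 4.91 CPM in Hulunbuir and 112 ± 6.48 CPM in Ujumqin (log2 change -0.59 ± 0.08, edgeR adjusted p = 0.000722), although limma on log2(FPKM + 1) left it at adjusted p = 0.264. Of 17 other nephrogenic transcription factors tested, 8 were higher and 3 lower (median 0.34).

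SALL4, the paralog of SALL1 best known from pluripotent and early embryonic cells, averaged 8.998 ± 0.69 CPM in Hulunbuir and 3.19 ± 0.30 CPM in Ujumqin (1.54 ± 0.17, adjusted p = 0.000264) and passed in all 14 alternatives. TCF21, of kidney stroma and epicardium, was 2.14-fold higher in Hulunbuir (1.10 ± 0.21, adjusted p = 0.00339) and the posterior factor HOXA10 was 1.66-fold lower (-0.73 ± 0.10, adjusted p = 0.000583). Neither passed with limma on log2(FPKM + 1), with adjusted p of 0.0959 for TCF21 and 0.585 for HOXA10, or in the fit on 12 libraries, with 0.219 for TCF21 and 0.355 for HOXA10.

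Podocyte and tubule genes were called higher in Hulunbuir for 8 of 16 tested at day 25 and lower for 1, with a median log2 change of 1.02 against 0.03 for all genes. HNF4A, a regulator of proximal tubule and of liver, averaged 9.15 ± 0.93 CPM in Hulunbuir and 1.498 ± 0.17 CPM in Ujumqin (log2 change 2.65 ± 0.20, edgeR adjusted p = 4.09e-05), and passed in all 14 alternatives. CUBN, an endocytic receptor of proximal tubule and yolk sac, averaged 12.2 ± 1.49 CPM in Hulunbuir and 2.14 ± 0.67 CPM in Ujumqin (2.54 ± 0.25, adjusted p = 0.000135). LRP2, its partner receptor, averaged 39.0 ± 4.11 CPM in Hulunbuir and 19.9 ± 1.22 CPM in Ujumqin (1.01 ± 0.11, adjusted p = 0.000201). CUBN and LRP2 missed the threshold with limma on log2(FPKM + 1), at 0.175 for CUBN and 0.158 for LRP2, and in the fit on 12 libraries, at 0.119 for CUBN and 0.168 for LRP2. AQP1, a water channel of tubule, vessels and red cells, was lower in Hulunbuir at 10.2 ± 0.77 CPM, against 18.2 ± 2.66 CPM in Ujumqin (-0.80 ± 0.14, adjusted p = 0.0025), a call lost with voom (0.292), with limma on log2(FPKM + 1) (0.764) and in the fit on 12 libraries (0.596).

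HNF4A, CUBN and LRP2 are also made in yolk sac endoderm, and HNF4A in liver. Yolk sac and liver markers summed to between 18268 and 19744 FPKM over 10 genes in Hulunbuir and to between 4774 and 7215 FPKM in Ujumqin at day 25, with none of the 10 at 0. Erythroid markers over 10 genes summed to between 15492 and 18316 FPKM in Hulunbuir and to between 1865 and 2383 FPKM in Ujumqin. Neither was tested as a part of the differences in the kidney lists or in the 9 factors. At day 16 CDH16 was highest in the libraries with the highest yolk sac and liver sums. It had 16.7 FPKM in Hulunbuir library 2 and 45.3 FPKM in Ujumqin library 3. UMOD of the late tubule was at 0 in all 12 libraries.

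**Figure D4:**
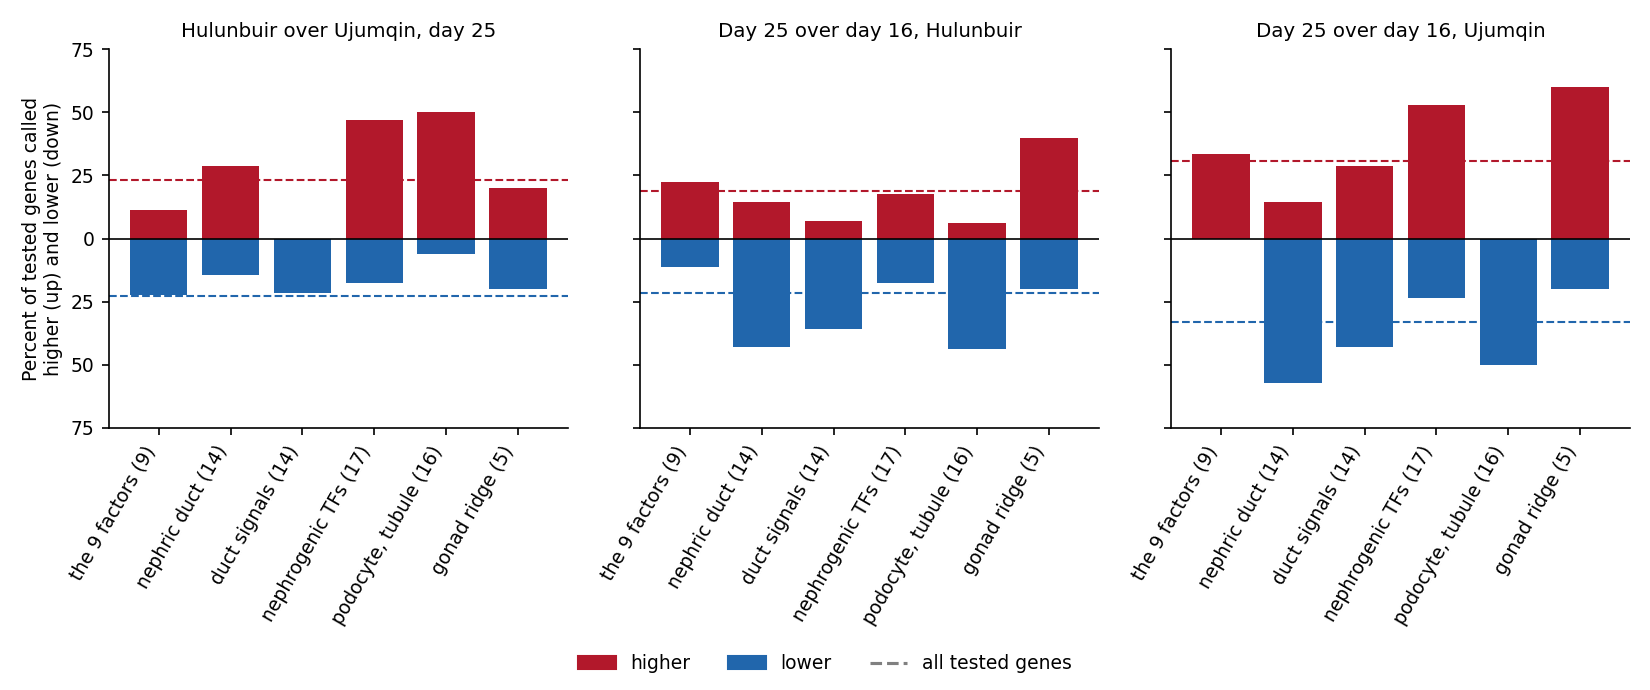
Percent of the tested genes of each list that were called higher (red, upward) and lower (blue, downward) in 3 comparisons, with the number tested in parentheses; dashed lines give the percent of all 14595 tested genes called in that direction. Of 16 podocyte and tubule genes, 8 are called higher between breeds at day 25, and 8 are called lower with age in Ujumqin.

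At day 16 none of the 66 tested genes of these 5 lists (duct, signals, nephrogenic factors, podocyte and tubule, gonad) was called between breeds by edgeR, where 18 had an unadjusted p under 0.05. DESeq2 called 12 of them, limma on log2(FPKM + 1) 14, voom 2, the replicate block 2 and the fit on 12 libraries 16. CDH16 averaged 22.2 ± 24.8 CPM in Hulunbuir and 70.8 ± 42.3 CPM in Ujumqin (adjusted p = 0.297). FGFR1, a receptor for FGF signals, averaged 225 ± 39.5 CPM in Hulunbuir and 109 ± 42.3 CPM in Ujumqin (log2 change 1.04 ± 0.31, adjusted p = 0.154). CBX2, a Polycomb subunit needed for the gonad, averaged 212 ± 66.4 CPM in Hulunbuir and 103 ± 32.1 CPM in Ujumqin (1.04 ± 0.35, adjusted p = 0.179). FGFR1 and CBX2 each passed in 4 of 15 alternatives.

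With age, 18.9% of all genes were called higher and 21.6% lower in Hulunbuir, and 30.7% higher and 32.9% lower in Ujumqin, and the list counts stand against these shares. In Hulunbuir 2 of 14 duct genes rose and 6 fell (median log2 change -0.58), and in Ujumqin 2 rose and 8 fell (median -1.60). ETV5, an ETS factor downstream of RET in mouse, fell in both breeds, by 2.08 on the log2 scale in Hulunbuir (edgeR adjusted p = 0.00371) and by 2.66 in Ujumqin (adjusted p = 0.000411). Its paralog ETV4 rose, by 0.89 ± 0.25 in Hulunbuir (adjusted p = 0.0154) and 1.75 ± 0.26 in Ujumqin (adjusted p = 0.000149). GATA3, of the nephric duct and of trophoblast, fell by 3.25 in Ujumqin (edgeR adjusted p = 0.000864). In that breed the trophoblast markers summed to between 364 and 513 FPKM at day 25 and between 1748 and 3393 FPKM at day 16. KRT8 made up most of these sums. Of 7 tested trophoblast genes, 6 were called lower at day 25 in Ujumqin and 0 higher.

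Among duct signals, 1 of 14 rose and 5 fell in Hulunbuir (median -0.66), and 4 rose and 6 fell in Ujumqin (median -0.57). ITGA8, the integrin of nephrogenic mesenchyme, and NPNT, its duct ligand nephronectin, fell together in both breeds. ITGA8 averaged 8.74 ± 0.66 CPM at day 25 and 95.4 ± 26.6 CPM at day 16 in Hulunbuir (log2 change -3.45 ± 0.31, edgeR adjusted p = 2.69e-05), and 9.55 ± 2.81 CPM at day 25 and 78.2 ± 25.2 CPM at day 16 in Ujumqin (-3.03 ± 0.30, adjusted p = 1.17e-05). NPNT fell by 1.52 in Hulunbuir (adjusted p = 0.000796) and by 2.47 in Ujumqin (adjusted p = 1.55e-05). FGF8, a signal for nephron formation and for many other embryonic fields, rose in Ujumqin (2.08 ± 0.43, adjusted p = 0.0016).

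WNT4, which triggers the conversion of mesenchyme to nephron epithelium, moved in opposite directions. It had 2.26, 2.63 and 2.97 CPM at day 25 and 0.599, 0.634 and 1.16 CPM at day 16 in Hulunbuir, and 0.781, 1.69 and 2.28 CPM at day 25 and 6.30, 14.8 and 3.56 CPM at day 16 in Ujumqin. The ages did not overlap in either breed, with day 25 above day 16 in Hulunbuir and below it in Ujumqin. The log2 change was 1.71 ± 0.56 in Hulunbuir (edgeR adjusted p = 0.0299) and -2.38 ± 0.56 in Ujumqin (adjusted p = 0.00339), and the difference between them 4.09 ± 0.79 (adjusted p = 0.00654). The difference and the Ujumqin fall passed in every alternative run, 20 and 15 of them. The Hulunbuir rise was lost with voom (0.13) and without day 25 library 1 (0.0526), 2 (0.0674) or 3 (0.0786). It was also lost without day 16 library 1 (0.0884) or 2 (0.0768). In Ujumqin at day 16 the trophoblast genes PPARG (20.5, 75.5 and 9.80 FPKM) and TFAP2C (19.2, 45.4 and 1.75 FPKM) had the library order of WNT4. CDX2, HAND1 and PAG4 of that list had this order too, and KRT8, S100G and ELF5 did not. The part of trophoblast in the WNT4 values was not tested.

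Of 17 other nephrogenic transcription factors, 3 rose and 3 fell in Hulunbuir (median 1.05), where 40.5% of all genes were called, and 9 rose and 4 fell in Ujumqin (median 1.29), where 63.6% were called. EYA2, the paralog of EYA1, averaged 21.0 ± 1.58 CPM at day 25 and 4.45 ± 2.31 CPM at day 16 in Hulunbuir (log2 change 2.23 ± 0.44, edgeR adjusted p = 0.00249), and 16.0 ± 0.89 CPM at day 25 and 2.31 ± 1.34 CPM at day 16 in Ujumqin (2.79 ± 0.45, adjusted p = 0.000307). HOXD10, a posterior patterning factor, rose by 2.69 ± 0.42 in Hulunbuir (adjusted p = 0.000612) and 3.07 ± 0.42 in Ujumqin (adjusted p = 9.36e-05). SALL4 fell by 3.34 in Hulunbuir (adjusted p = 7.43e-05) and by 3.48 in Ujumqin (adjusted p = 1.52e-05), while its paralog SALL1 fell past the threshold in Hulunbuir and not in Ujumqin. TBX18, of ureter mesenchyme and epicardium, rose in Ujumqin (2.73 ± 0.66, adjusted p = 0.00392).

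Podocyte and tubule genes fell for 7 and rose for 1 of 16 in Hulunbuir (median -0.94), and fell for 8 and rose for 0 in Ujumqin (median -3.33). CLCN5, a chloride transporter of proximal tubule endosomes, averaged 3.24 ± 0.43 CPM at day 25 and 28.6 ± 1.30 CPM at day 16 in Hulunbuir (log2 change -3.14 ± 0.18, edgeR adjusted p = 4.21e-06), and 2.25 ± 0.48 CPM at day 25 and 44.2 ± 1.55 CPM at day 16 in Ujumqin (-4.29 ± 0.20, adjusted p = 4.69e-07). LRP2 fell by 3.71 in Hulunbuir (adjusted p = 0.000267) and HNF4A by 5.95 in Ujumqin (adjusted p = 6.18e-06). PTPRO, a podocyte phosphatase, fell in Hulunbuir by 2.88 (adjusted p = 0.000549), while SYNPO, which encodes the podocyte and smooth muscle actin-binding protein synaptopodin, was the riser of that list (2.96 ± 0.62, adjusted p = 0.00354). In Hulunbuir the yolk sac and liver markers summed to between 18268 and 19744 FPKM at day 25 and between 3948 and 12183 FPKM at day 16. Single markers were split there, with 4 of 10 called higher at day 25 and 2 lower. The 2 lower were APOB (log2 change -2.095 ± 0.60, edgeR adjusted p = 0.0171) and FOXA1 (-2.54 ± 0.41, adjusted p = 0.000798). In Ujumqin the sums lay between 4774 and 7215 FPKM at day 25 and between 22189 and 56706 FPKM at day 16. Of the 10 markers, 7 were called lower at day 25 in Ujumqin and 0 higher. The trophoblast markers in Hulunbuir summed to between 398 and 423 FPKM at day 25 and between 1391 and 4425 FPKM at day 16. KRT8 made up most of these sums. Of 7 tested trophoblast genes, 1 was called higher and 3 lower at day 25 in Hulunbuir. The part of either list in these falls was not tested.

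Gonad ridge genes, beside the mesonephros, rose for 2 and fell for 1 of 5 tested in Hulunbuir, and rose for 3 and fell for 1 in Ujumqin. LHX9, a LIM homeobox factor of the gonad ridge, limb and brain, averaged 4.19 ± 0.90 CPM at day 25 and 0.129 ± 0.161 CPM at day 16 in Hulunbuir (log2 change 4.94 ± 0.88, edgeR adjusted p = 0.0022). In Ujumqin LHX9 averaged 2.88 ± 0.59 CPM at day 25 and had no count in any of the 3 libraries of day 16, so it was at least 44.9-fold higher at day 25 against a floor of 3 counts per library (adjusted p = 0.000188). GATA4, of gonad, heart and yolk sac endoderm, fell by 1.78 in Hulunbuir (adjusted p = 0.000296) and by 2.79 in Ujumqin (adjusted p = 7.59e-06), and at day 25 it was 3.72-fold higher in Hulunbuir than in Ujumqin (1.897 ± 0.13, adjusted p = 2.61e-05). Of 11 tested neural markers, 4 rose and 7 did not pass in Hulunbuir, and 9 rose and 2 did not pass in Ujumqin. STMN2 of young neurons rose by 2.69 ± 0.47 in Hulunbuir (edgeR adjusted p = 0.00127) and 4.81 ± 0.52 in Ujumqin (adjusted p = 2.09e-05). The neural sums were 306 to 321 FPKM in Hulunbuir and 229 to 292 FPKM in Ujumqin at day 25. STMN2 made up most of these sums, and on the TMM scale it averaged 115 CPM in Hulunbuir and 133 CPM in Ujumqin. The part of neural tissue in the rises of EMX2 and PAX8, which it also makes, was not tested.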

How the data were processed

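RNA-seq was available for 12 libraries of sheep embryos. Per the labels' protocols, RNA was isolated with TRIzol and standard Illumina libraries were made. Per the submitters' processing notes, cutadapt 1.9 and FastQC were used and the genome build was Oar_v3.1. No source used here names the aligner, the counting program or its strand setting. The deposited table gives whole-number counts per gene, not scaled between libraries, and FPKM, per the file headers. The deposited FPKM equal the counts times 1 factor per gene and 1 per library, to within a median spread of 0.0803% over 8029 genes with over 200 counts in every library. Of 26247 listed genes, 17043 carry a symbol in the deposited table. A further 1276 without one were given a symbol from a RefSeq table used for names alone.

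The 14595 genes that reached 1 FPKM in 3 or more libraries were kept. Counts were scaled by TMM and tested with edgeR 4.0.16 in R 4.3.3 by quasi-likelihood, two-sided, adjusted by Benjamini-Hochberg, and called under 0.05. Breed contrasts (Hulunbuir minus Ujumqin) used the 6 libraries of an age, since day 16 libraries vary more. Age contrasts (day 25 minus day 16) and the interaction used 12 libraries with 4 group means. Alternatives were DESeq2 size factors, total count scaling, no filter, DESeq2 1.42.0, voom and limma 3.58.1 on log2(FPKM + 1), a replicate block, another set of libraries in the fit, and leaving out each library. Leaving out both day 16 libraries numbered 2 was chosen after seeing the data. The fit was tested on simulated data.

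The 9 factors and the 180 other listed genes (157 in the table) were chosen with earlier results of these data known. Named were all 9 factors, genes from up to 3 called per list, direction and contrast by smallest adjusted p, genes from the 2 uncalled per list with the highest FPKM, and the 3 profiles most like each factor. Not every gene this rule took is printed, and WNT4's change with age in Ujumqin was added after its values were seen.

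Deviations of same-numbered libraries from their group means correlated between breeds at day 16 (r = 0.156, 0.307 and 0.381), which meets the criterion set here for pairing (every r over 0.1), while the labels do not say what the number marks. The main fits carry no block, and the fit with the replicate block is an alternative. At day 25 they did not (0.009 to 0.044). Within groups, replicate libraries correlated at Pearson r of 0.903 to 0.985 and differed beyond sampling noise, so each was counted. A floor of 3 counts corresponds to 0.0541 to 0.0985 CPM of total counts. Columns of other samples numbered 0. Sequences of the 9 genes were not used here.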

Additional observations from a re-analysis of the deposited data

Results flagged for a closer look

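Results were listed here where the change with age differed between the breeds by a test of the difference itself. Among the 9 factors these were SIX2, whose change with age differed by -1.82 on the log2 scale between Hulunbuir and Ujumqin (SE 0.47, edgeR quasi-likelihood adjusted p = 0.0214), and SALL1, with -1.50 (SE 0.42, adjusted p = 0.0304). Over the alternatives run, the adjusted p lay between 0.00163 and 0.0634 for SIX2, with 13 of 20 past the threshold, and between 0.00218 and 0.0954 for SALL1, with 11 of 20 past it. Among the related genes, 1 of 14 nephric duct genes, 1 of 14 duct signals and 4 of 16 podocyte and tubule genes had a positive difference called. A negative one was called for 2 of 14 duct signals and 2 of 5 gonad ridge genes. Of all genes, 8.89% were called positive and 10.3% negative. HNF4A (3.77, edgeR adjusted p = 0.00327), PDZK1 (3.08, 0.0037) and STAR (-1.28, 0.00408) had smaller adjusted p than WNT4. WNT4 differed by 4.09 (SE 0.79, edgeR adjusted p = 0.00654). Over its alternatives the adjusted p lay between 1.13e-05 and 0.0225, with 20 of 20 past the threshold. The part of trophoblast in the WNT4 values was not tested. Groups of 3 libraries were not screened for a single library that stands apart.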

How the results depend on the processing

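Of the 9 factors, the number called between breeds at day 16 went to 1 (SALL1) with DESeq2, voom, limma on log2(FPKM + 1), the replicate block and the fit on 12 libraries, against 0 in the main analysis, and stayed at 0 without each library in turn. At day 25 it was 1 (SIX2) with limma on log2(FPKM + 1) and in the fit on 12 libraries, against 3. For age in Hulunbuir it was 2 in the fit on the 6 libraries of the breed and 2 to 3 without each library, against 3. For age in Ujumqin, against 3, it was 2 with total count scaling and with no expression filter, 4 with DESeq2, voom and the fit on the 6 libraries of the breed, 2 to 4 without each library, and 5 without both day 16 libraries numbered 2, an alternative chosen after seeing the data. For the interaction it was 0 with total count scaling, 1 with voom and 1 with limma on log2(FPKM + 1), against 2, and 0 to 3 without each library. The pairing held at day 16 alone; with the replicate block the count stayed at 3 between breeds at day 25, at 3 with age in each breed, and at 2 for the interaction.

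Log2 changes that reversed were all of uncalled values, and for these the cause was not tested beyond the library left out. Between breeds at day 16, OSR1 was -0.22 without both libraries numbered 2 and WT1 was -0.001 with the replicate block; leaving out 1 library gave WT1 -1.15 to 1.12 and SIX2 -0.045 to 0.83. At day 25, limma on log2(FPKM + 1) gave OSR1 0.006, SALL1 0.18 and EMX2 0.064, and total count scaling gave SALL1 0.21. For age in Hulunbuir, OSR1 was 0.12 without both libraries numbered 2 and -0.86 to 0.12 without 1 library, WT1 -1.22 to 1.02 and EYA1 -0.59 to 0.24. For the interaction, PAX2 was 0.95 with voom, 0.22 with the replicate block and -1.02 to 2.29 without 1 library.

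Over all genes, breed at day 16 gave 3 calls, 1601 with DESeq2, 487 with voom, 2162 with limma on log2(FPKM + 1), 293 with the block, 2459 in the fit on 12 libraries and 0 to 200 without 1 library. Breed at day 25 gave 6716 calls, 3667 with limma on log2(FPKM + 1) and 2440 in the fit on 12 libraries. The interaction gave 2804, and 1561 to 3337 without 1 library. Scaling moved the split of calls: 3397 higher and 3319 lower at day 25 became 6049 and 1483 with total counts and 3140 and 527 with limma on log2(FPKM + 1). For age in Hulunbuir, 2758 and 3155 became 3454 and 2144 with total counts and 3805 and 2131 with limma on log2(FPKM + 1). For the interaction, 1298 and 1506 became 1990 and 722 with total counts, 2203 and 772 with limma on log2(FPKM + 1) and 1288 and 1000 with no filter. PAX2, LHX1 and EMX2 each had 0 counts in 1 library.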
